A study of Homo sapiens with 8 samples.

Results

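Golgi glycosyltransferases build the sugar chains of secreted and surface proteins and of glycolipids, and 7 of their gene families were followed here across 2 human lung adenocarcinoma lines and 4 hairpins. The members were taken by symbol alone: every gene named GALNT, B4GALT, B3GNT, ST3GAL, ST6GAL, ST6GALNAC or FUT directly followed by a number and read by a probe set with that single symbol, pseudogenes left out. This gave 55 of 18404 genes on the array: 17 GALNT, 9 FUT, 8 B3GNT, 7 B4GALT, 6 ST3GAL, 6 ST6GALNAC and 2 ST6GAL genes. GALNT4 was read only by a probe set with several symbols and was left out. Where a gene had several probe sets, as GALNT17 and ST6GALNAC3 to ST6GALNAC6 did (5 members), the brightest was kept. No member was removed for a low value, and 20 of the 55 lay among the dimmest 40% of genes: 7 of the 9 FUT, 7 GALNT, 2 ST3GAL, 2 ST6GALNAC, 1 B3GNT and 1 ST6GAL gene.

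NCI-H1299 (here H1299) and NCI-H2009 (here H2009) are both named lung adenocarcinoma by the labels. Each was infected for 2 days with lentivirus carrying a short hairpin RNA, selected for 2 days with puromycin and harvested at day 4, controls included. The hairpins were 2 against PTK7, a catalytically inactive receptor of Wnt and planar cell polarity signalling, here PTK7-1 and PTK7-2, and 2 controls, against GFP and luciferase (LUC). Each line received each hairpin on 1 array of total RNA, so that the 8 arrays form 4 groups of 2: H1299 control, H1299 PTK7, H2009 control and H2009 PTK7. Both are established cell lines, and the labels do not say whether any culture was repeated. P-values therefore cover only the spread between single arrays. In the fit by group this spread includes the difference between the 2 hairpins of a group, and the rest may be technical. In the fit of hairpin plus line it is what remains after hairpin and line are taken out. Values are log2 intensities per probe set after RMA normalization, and ± gives the standard error of the fit unless marked SD. A gene is called where limma's p, adjusted by Benjamini-Hochberg over all 18404 genes, is under 0.05.

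Array medians were 5.31 to 5.41. In H1299, PTK7 read 5.73 (GFP), 6.03 (LUC), 5.63 (PTK7-1) and 5.53 (PTK7-2), and in H2009 it read 6.64, 6.86, 5.63 and 5.94 in the same order. Both PTK7 arrays lay under both control arrays in each line, with a narrow gap in H1299. PTK7 itself was not called in limma's fit, at -0.68 with PTK7-1 (adjusted p = 0.165) and -0.58 with PTK7-2 (adjusted p = 0.176). The lines differ in epithelial markers: EPCAM, CDH1 and KRT19 ran from 3.32 to 5.66 over the H1299 arrays and from 11.17 to 11.43 over the H2009 arrays, while KRT8 and KRT18 were at least 8.68 on every array. The lung lineage factor NKX2-1 was 4.96 to 5.64 in H1299 and 6.89 to 8.36 in H2009. The lung secretory genes SFTPB, SFTPC and SCGB1A1 stayed at or under 5.33 in both lines. NAPSA, the other lung lineage marker measured, is not summarized here. Of 14 leukocyte, fibroblast and endothelial markers measured, 13 stayed at or under 5.36 on all arrays, and COL1A1 ran from 6.09 to 6.93.

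The families act at different steps in the building of several kinds of sugar chain. GALNT enzymes start mucin-type O-glycans by placing N-acetylgalactosamine on serine or threonine. B4GALT enzymes add galactose and B3GNT enzymes add N-acetylglucosamine, and the alternation of both extends chains into poly-N-acetyllactosamine on N-glycans, O-glycans and glycolipids. ST3GAL, ST6GAL and ST6GALNAC enzymes cap chains with sialic acid, and FUT enzymes add fucose, with which sialylated chains become Lewis-type antigens. Tumours of glandular epithelium are known for truncated O-glycans and for sialylated and fucosylated antigens.

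The families differed widely between the lines before any knockdown. Under control hairpins, 20 of the 55 members were called between H1299 and H2009 (36.4%), 6 higher and 14 lower in H1299. Of all genes, 24.8% were called, 12.5% higher and 12.3% lower. At an unadjusted p under 0.05 there were 32 members (58.2%), against 35.0% of all genes. The median difference, H1299 minus H2009, was -0.28 over the members and 0.06 over all genes, and the median absolute difference was 0.65 against 0.27. The GALNT family held 9 of the calls (6 lower, 3 higher of 17), FUT 3 (all lower), ST6GALNAC 3 (2 lower, 1 higher), ST3GAL 2 (both higher), B3GNT 2 (both lower), B4GALT 1 (lower) and ST6GAL 0. Over all 8 arrays, hairpin arrays included, 24 members did not overlap between the lines (43.6%, 5 higher and 19 lower), against 35.2% of all genes, 19.0% higher and 16.2% lower. The line and its epithelial marker state cannot be told apart, and neither can fewer expressing cells and less RNA per cell in these bulk extracts.

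**Figure D1:**
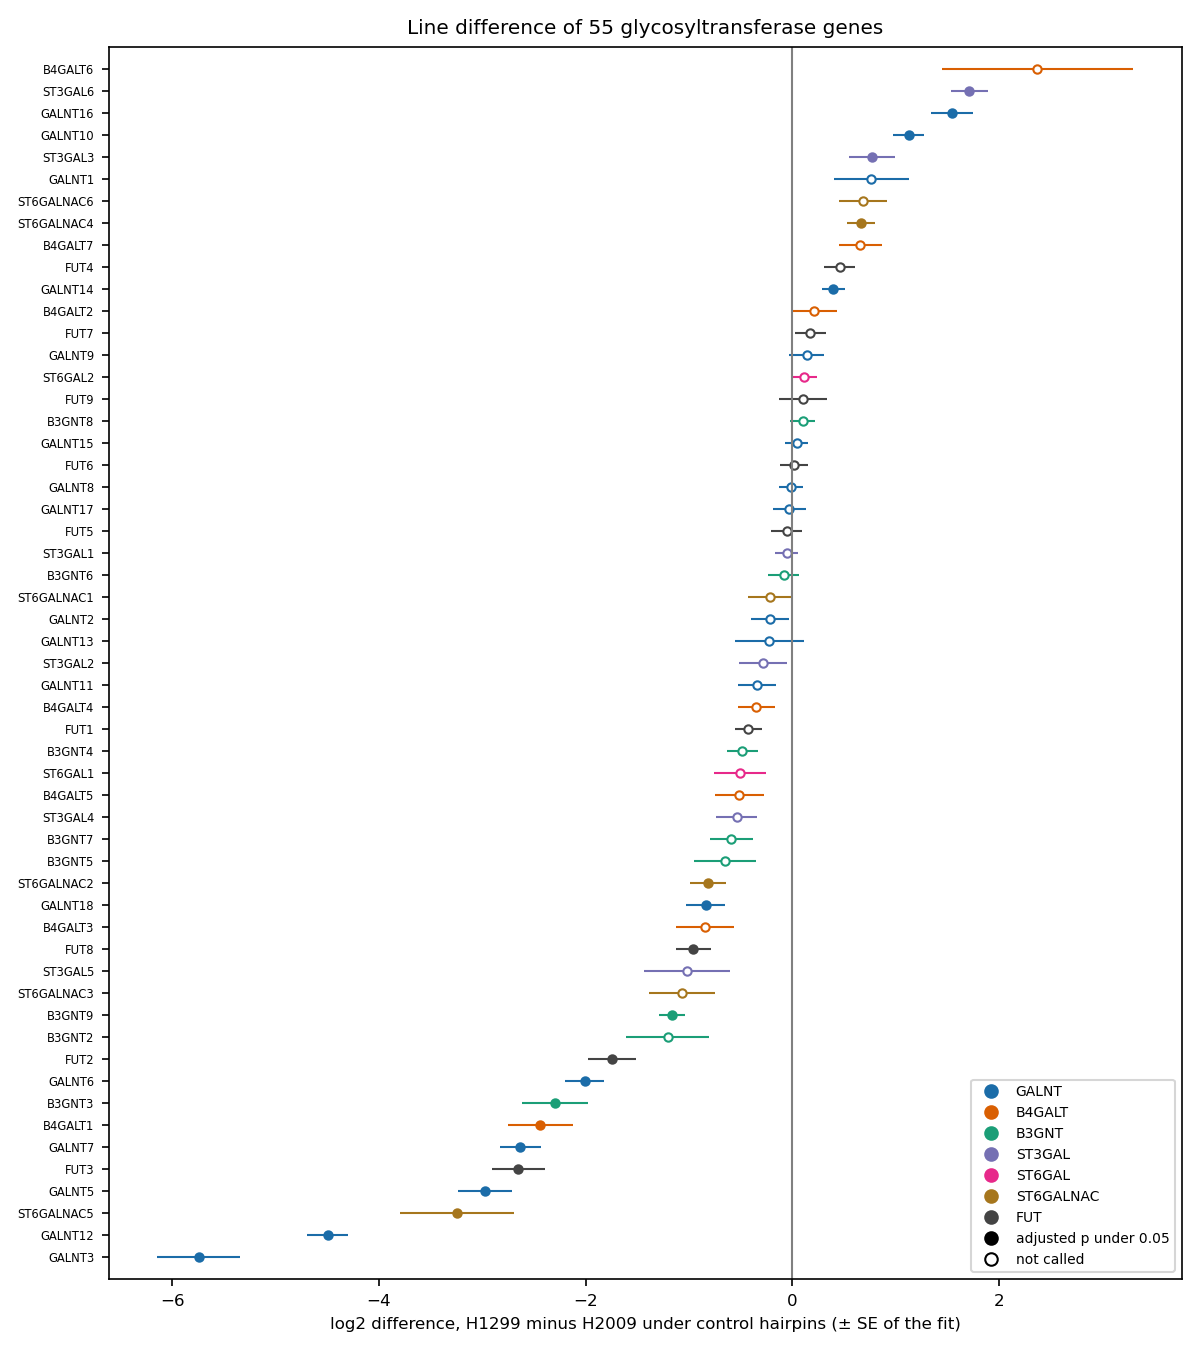
Difference between the lines of each of the 55 members, as the log2 value in H1299 minus that in H2009 under control hairpins (x axis, bars are the SE of the fit), coloured by family and filled where called. Filled points lie mostly on the left, from GALNT3 at -5.75 to ST6GALNAC2 at -0.81, and 6 lie on the right, the farthest ST3GAL6 at 1.71; B4GALT6, farther right at 2.37, is open.

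Among the enzymes that start O-glycans, GALNT3 had the largest difference. GALNT3 glycosylates the phosphate-regulating hormone FGF23 and is an epithelial enzyme closely related to GALNT6. In H1299 it read 3.69 (GFP), 4.23 (LUC), 4.24 (PTK7-1) and 3.61 (PTK7-2), and 9.66, 9.76, 10.25 and 9.08 in the same order in H2009. All 4 H2009 arrays were high and all 4 H1299 arrays were low, with a wide gap. The control difference was -5.75 ± 0.40, or 53.7-fold lower in H1299 (limma adjusted p = 9.76e-05), the 27th lowest of 18404 genes. GALNT12, known for germline variants in colorectal cancer families, read 4.12, 4.17, 4.04 and 4.47 in H1299 and 8.88, 8.41, 8.37 and 8.31 in H2009, again for GFP, LUC, PTK7-1 and PTK7-2. The lines did not overlap, and the control difference was -4.50 ± 0.20 (22.6-fold lower, adjusted p = 1.39e-05), the 85th lowest of all genes. From here on, 4 values of a line follow this order of hairpins.

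GALNT6, the close relative of GALNT3, read 6.76, 6.24, 6.45 and 6.72 in H1299 and 8.48, 8.54, 8.86 and 8.84 in H2009, a difference of -2.01 ± 0.19. GALNT5 read 3.34, 3.11, 3.40 and 3.46 in H1299 and 5.81, 6.58, 5.47 and 5.90 in H2009, a difference of -2.97 ± 0.26. Both were lower on every H1299 array than on any H2009 array, and GALNT5 lay in the dim range. GALNT7, which acts on peptides that already carry N-acetylgalactosamine, read 7.92, 7.46, 7.004 and 7.43 in H1299 and 10.28, 10.37, 9.96 and 9.99 in H2009 (-2.63 ± 0.20). GALNT10, which has the same preference for such glycopeptides, went the other way: 8.50, 8.37, 8.68 and 8.96 in H1299 and 7.44, 7.18, 7.04 and 6.94 in H2009 (1.13 ± 0.15). The lines did not overlap in either gene, so that these enzymes of like preference were higher in opposite lines. GALNT16 was also higher in H1299 on all arrays, with 6.36, 6.42, 6.35 and 6.999 against 4.90, 4.79, 5.45 and 5.44 (1.54 ± 0.20). GALNT18, in the dim range, read 5.14, 4.90, 4.96 and 5.35 in H1299 and 6.04, 5.67, 6.01 and 6.09 in H2009 (-0.84 ± 0.19, adjusted p = 0.0180). Its lines did not overlap, but its call was lost without the H1299 LUC array (-0.72, adjusted p = 0.108) or the H2009 GFP array (-0.65, adjusted p = 0.131).

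GALNT14, also dim, read 4.56, 4.67, 4.53 and 4.49 in H1299 and 4.19, 4.25, 4.56 and 4.54 in H2009. The control arrays of the lines were apart and the PTK7 arrays overlapped. Its difference of 0.39 ± 0.11 was called (adjusted p = 0.0404), but the call was lost without any of the 4 control arrays or either H2009 PTK7 array (adjusted p from 0.0501 to 0.225), and with the hairpin as a replicate block (adjusted p = 0.0550). The other 8 GALNT genes were not called. Their differences ran from -0.34 in GALNT11 to 0.77 in GALNT1, and GALNT2, a widely expressed member of the family, stood at -0.22 ± 0.18.

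Of the chain-extending enzymes, B4GALT1 and B3GNT3 were called lower in H1299. B4GALT1, which adds galactose to N-acetylglucosamine and forms lactose synthase with alpha-lactalbumin, read 8.30, 7.30, 8.06 and 8.51 in H1299 and 10.32, 10.16, 10.47 and 10.61 in H2009. The lines were apart on all arrays, with the H1299 LUC array the lowest, and the difference was -2.44 ± 0.31 (adjusted p = 0.00167). B3GNT3, which extends O-glycans and takes part in L-selectin ligands, read 6.14, 5.61, 5.84 and 5.80 in H1299 and 8.37, 7.97, 8.21 and 9.12 in H2009 (-2.30 ± 0.32). B3GNT9 read 5.48, 5.36, 5.43 and 5.27 in H1299 and 6.53, 6.64, 6.09 and 6.01 in H2009 (-1.16 ± 0.12). Neither gene overlapped between the lines. The other 6 B3GNT genes ran from -1.21 in B3GNT2 to 0.10 in B3GNT8 without a call.

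B4GALT6, a lactosylceramide synthase that adds galactose to glucosylceramide, had the most positive difference of the members, 2.37 ± 0.93, and was not called (adjusted p = 0.114). It read 9.27, 9.20, 9.56 and 7.53 in H1299 and 6.77, 6.96, 7.58 and 4.77 in H2009. The control arrays were tightly grouped in each line, and the PTK7-2 array was low in both, which entered the spread of the fit. With the hairpin as a replicate block its adjusted p was 3.14e-04. B4GALT5, the other lactosylceramide synthase, differed by -0.51 ± 0.23 and was not called. B4GALT7, which adds the galactose of the linker that joins proteoglycan chains to protein, stood at 0.66 ± 0.20 (adjusted p = 0.0549).

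Sialyltransferases were called in both directions. ST3GAL6, which caps lactosamine chains and takes part in selectin ligands, read 6.82, 6.54, 5.53 and 5.96 in H1299 and 5.03, 4.90, 4.45 and 4.52 in H2009. It was higher on every H1299 array (1.71 ± 0.18, 3.28-fold, adjusted p = 6.17e-04). ST3GAL3, which makes sialyl Lewis-type ends, read 6.47, 5.75, 6.32 and 6.35 in H1299 and 5.27, 5.39, 5.36 and 5.21 in H2009 (0.77 ± 0.22, adjusted p = 0.0440). Its lines did not overlap, but leaving out any array other than H1299 LUC ended the call, with adjusted p from 0.0504 to 0.208. Of the other 4 ST3GAL genes none was called, and ST3GAL5, the synthase of ganglioside GM3, stood at -1.02 ± 0.41 (adjusted p = 0.126). The ST6GAL pair, which places sialic acid on lactosamine ends, was not called: -0.51 ± 0.25 for ST6GAL1 and 0.11 ± 0.13 for ST6GAL2.

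Of the ST6GALNAC enzymes, which place sialic acid on the N-acetylgalactosamine of O-glycans and gangliosides, ST6GALNAC5 differed most. This brain-type ganglioside enzyme, known from breast cancer cells that reach the brain, read 5.27, 4.95, 5.05 and 5.24 in H1299 and 8.45, 8.27, 6.70 and 8.70 in H2009. The lines did not overlap, though the H2009 PTK7-1 array was low for its line. The difference was -3.25 ± 0.55 (adjusted p = 0.00533) on the brighter probe set and -0.83 ± 0.29 (adjusted p = 0.0786) on the dimmer one. ST6GALNAC2 read 5.54, 5.16, 4.92 and 5.04 in H1299 and 6.05, 6.28, 5.42 and 5.21 in H2009 (-0.81 ± 0.17). Its control arrays were apart between the lines, and its H2009 PTK7 arrays lay within the H1299 control range. The call was lost without the H1299 LUC array (-0.62, adjusted p = 0.0773) or the H2009 LUC array (-0.70, adjusted p = 0.109). ST6GALNAC4, the enzyme of disialylated O-glycans, read 8.65, 8.36, 8.29 and 8.20 in H1299 and 7.86, 7.82, 8.21 and 8.22 in H2009 (0.67 ± 0.13, adjusted p = 0.0105). The control arrays were apart and the PTK7 arrays of the lines overlapped. Without the H1299 GFP array its adjusted p was 0.0611, without the H2009 GFP array 0.0674, without the H2009 LUC array 0.0829, and on the dimmer probe set the difference was 0.50 (adjusted p = 0.0744).

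Of the fucosyltransferases, the 3 called were all lower in H1299. FUT3, the Lewis blood group enzyme, read 4.08, 3.87, 3.94 and 4.09 in H1299 and 6.57, 6.69, 5.996 and 6.83 in H2009 (-2.65 ± 0.26, 6.29-fold, adjusted p = 4.60e-04). FUT2, the secretor enzyme of mucosal surfaces, read 4.39, 4.80, 4.52 and 4.58 in H1299 and 6.18, 6.51, 5.93 and 6.50 in H2009 (-1.75 ± 0.23). FUT8, which adds the core fucose of N-glycans, read 8.95, 8.51, 8.67 and 8.87 in H1299 and 9.60, 9.78, 9.58 and 9.52 in H2009 (-0.96 ± 0.17, adjusted p = 0.00711, and -0.87 with adjusted p = 0.0650 without the H2009 LUC array). None of these 3 overlapped between the lines. FUT3 lies between FUT6 and FUT5 on chromosome 19, and the 3 are close copies of one another, so that their probes may share signal. FUT6 differed by 0.02 ± 0.13 and FUT5 by -0.05 ± 0.15, neither called. FUT4, an enzyme of Lewis X in myeloid cells, stood at 0.46 ± 0.15 (adjusted p = 0.0695), and FUT1, FUT7 and FUT9 were not called.

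**Figure D2:**
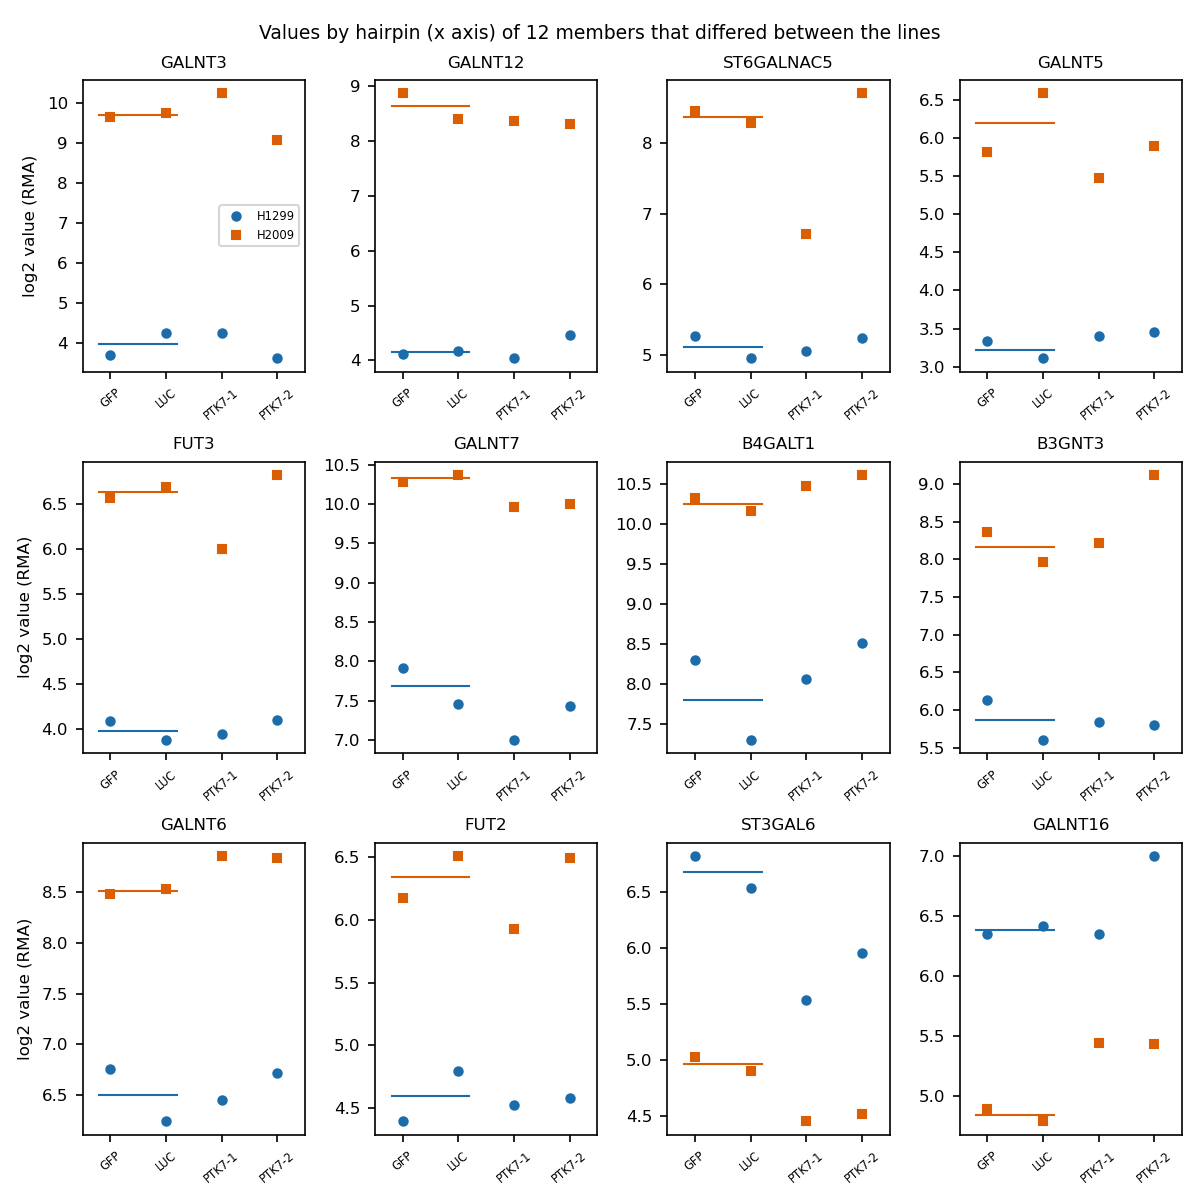
Values of 12 members called between the lines on each array, as log2 RMA value (y axis, own scale per gene) by hairpin (x axis), circles for H1299 and squares for H2009, with a line at the mean of each line's 2 control arrays. In each gene the 4 arrays of one line lie apart from the 4 of the other; ST3GAL6 and GALNT16 are higher in H1299 and the other 10 lower.

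With the hairpin as a replicate block, in which a shift that a hairpin causes in H1299 and H2009 alike leaves the error, 31 members were called between the lines, 9 higher and 22 lower (31.3% of all genes). They kept 19 of the 20 and added B3GNT2, B3GNT7, B4GALT3, B4GALT5, FUT1, ST3GAL4, ST3GAL5 and ST6GALNAC3 as lower and B4GALT6, B4GALT7, GALNT1 and ST6GALNAC6 as higher.

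The promoters of the members with the largest line differences are printed because they are where the lines differed most, with GALNT1 and ST3GAL6 beside them as the members called lower with the PTK7 hairpins over both lines under the replicate block. Each is the 250 bases before an annotated start, 5′ to 3′ on the gene's strand, from RefSeq on GRCh38.p14, and 42 of the 55 members had an entry (B4GALT6 and GALNT5 had none). Genes can have several starts, and 12 of the 42 windows, those of GALNT3 and FUT3 among them, lie inside the annotated span of their gene. Capitals mark GGGCGG, the core of the GC box, and CAGGTG, an E-box of the kind that zinc finger repressors of epithelial genes bind, on either strand, so that CCGCCC and CACCTG are marked too. No match of one overlapped a match of the other in these 42 promoters.

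GALNT3, chr2:165794248-165794497, minus strand: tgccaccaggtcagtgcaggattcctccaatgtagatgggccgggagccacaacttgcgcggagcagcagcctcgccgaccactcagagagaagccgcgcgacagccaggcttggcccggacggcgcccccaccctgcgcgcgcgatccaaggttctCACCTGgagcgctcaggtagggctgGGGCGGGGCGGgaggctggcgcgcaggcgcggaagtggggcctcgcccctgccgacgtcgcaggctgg
GALNT12, chr9:98807420-98807669, plus strand: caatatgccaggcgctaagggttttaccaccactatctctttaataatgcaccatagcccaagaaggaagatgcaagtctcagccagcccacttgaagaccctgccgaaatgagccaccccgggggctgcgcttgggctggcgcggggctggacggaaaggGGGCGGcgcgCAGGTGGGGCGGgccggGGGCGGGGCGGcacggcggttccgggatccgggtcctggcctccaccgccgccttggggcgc
ST6GALNAC5, chr1:76867230-76867479, plus strand: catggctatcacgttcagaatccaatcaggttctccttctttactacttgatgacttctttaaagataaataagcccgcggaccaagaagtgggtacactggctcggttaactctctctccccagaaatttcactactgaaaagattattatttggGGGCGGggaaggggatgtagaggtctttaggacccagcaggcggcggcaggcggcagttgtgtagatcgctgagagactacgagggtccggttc
FUT3, chr19:5851450-5851699, minus strand: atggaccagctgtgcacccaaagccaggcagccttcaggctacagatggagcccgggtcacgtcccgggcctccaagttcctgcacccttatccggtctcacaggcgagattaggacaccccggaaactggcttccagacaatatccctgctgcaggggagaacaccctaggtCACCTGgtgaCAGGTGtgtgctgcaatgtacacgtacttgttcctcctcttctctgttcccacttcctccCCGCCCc
GALNT1, chr18:35580672-35580921, plus strand: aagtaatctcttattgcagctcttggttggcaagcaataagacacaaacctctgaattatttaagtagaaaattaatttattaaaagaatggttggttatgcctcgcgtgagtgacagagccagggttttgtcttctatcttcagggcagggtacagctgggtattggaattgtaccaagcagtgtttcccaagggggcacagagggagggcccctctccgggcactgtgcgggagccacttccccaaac
ST3GAL6, chr3:98732012-98732261, plus strand: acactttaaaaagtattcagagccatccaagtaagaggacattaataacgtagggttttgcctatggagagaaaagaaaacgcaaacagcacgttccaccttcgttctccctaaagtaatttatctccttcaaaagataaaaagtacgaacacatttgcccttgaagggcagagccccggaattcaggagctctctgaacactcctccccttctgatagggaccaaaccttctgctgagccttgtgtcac

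Of 27305 promoter windows of this length, 42.3% held GGGCGG and 17.5% held CAGGTG on either strand. Among the 42 members, 29 held GGGCGG and 9 held CAGGTG. Of the 9 promoters of members called lower in H1299, 8 held GGGCGG and 5 held CAGGTG: FUT2, FUT3, FUT8, GALNT3 and GALNT12. The windows of FUT3, FUT8 and GALNT3, and those of B3GNT3 and B4GALT1 among the 9, lie inside the span of their gene. Of the 6 promoters of members called higher, 5 held GGGCGG and 1, GALNT14, held CAGGTG. The TATAAA box was in 11.1% of windows and in 0 of the 42. GC content was 71.6% for GALNT3, 67.2% for GALNT12, 59.2% for FUT3, 49.6% for ST6GALNAC5, 47.2% for GALNT1 and 44.0% for ST3GAL6. Its median over all windows was 58.0%, and the motif counts were not adjusted for it. The counts describe the letters of the windows and were not tested.

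Of 75 measured genes in 6 lists of substrates and partner enzymes of these families, 23 were called under control hairpins, 13 higher and 10 lower in H1299 (30.7%, against 24.8% of all genes). Without the H1299 LUC array 14 were called (2910 of all genes, against 4566), without the H2009 GFP array 11 (2375 of all genes) and without the H2009 LUC array 11 (2196 of all genes). Mucins and other carriers of O-glycans gave 7 calls of 14, 5 of them lower. CD24, a small heavily glycosylated surface protein, read 2.82 to 3.52 in H1299 and 8.41 to 9.09 in H2009, a difference of -5.91 ± 0.26. The membrane mucins MUC16 (-3.89 ± 0.22) and MUC1 (-3.13 ± 0.56) were lower in H1299 too. MUC15 was higher in H1299, at 3.15 ± 0.32.

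Of 6 enzymes of O-glycan cores and branches, GCNT3, the mucin-type branching enzyme, was lower (-2.17 ± 0.23) and GCNT2, the I-branching enzyme, higher (0.73 ± 0.20). Of 17 other galactosyl-, N-acetylgalactosaminyl- and related transferases, UGCG and B4GAT1 among them, 4 were higher and 2 lower. The largest were B3GALNT1, the globoside synthase (-2.76 ± 0.17), B3GALT1 (2.42 ± 0.47), UGCG, which makes the glucosylceramide that B4GALT5 and B4GALT6 extend (2.25 ± 0.24), and B4GALNT1, the synthase of gangliosides GM2 and GD2 (1.19 ± 0.33). Of 13 N-glycan genes, MGAT4B (0.82 ± 0.16) and MGAT1 (0.71 ± 0.13) were higher and MAN2A1 (-0.92 ± 0.18) lower. Of 6 ST8SIA genes, whose enzymes link sialic acid to sialic acid, ST8SIA5 was higher (1.07 ± 0.22). The list of 19 genes of nucleotide sugars and their transport also held the protein O-fucosyltransferases POFUT1 and POFUT2. Of the 19, SLC35D2 (0.96 ± 0.18), UAP1 (0.87 ± 0.21) and GALK1 (0.67 ± 0.17) were higher. SLC35A1, the Golgi carrier of CMP-sialic acid, was lower (-0.89 ± 0.17).

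Knockdown was compared next, first with both PTK7 hairpins together. No member was called over both lines (0% of all genes), and 10 of 55 (18.2%) had an unadjusted p under 0.05, against 9.88% of all genes. The median difference was -0.0039 over the members and 0.02 over all genes. The smallest p belonged to ST3GAL6, at -0.70 ± 0.13 (adjusted p = 0.182), GALNT1 at -1.36 ± 0.26 (adjusted p = 0.190), ST6GALNAC2 at -0.61 ± 0.12 (adjusted p = 0.194) and ST6GAL1 at -0.74 ± 0.18 (adjusted p = 0.251). With the hairpin as a replicate block, GALNT1 (limma adjusted p = 0.0419) and ST3GAL6 (adjusted p = 0.0491) were called lower, beside 0.81% of all genes. The block takes the spread between hairpins out of the error. These 2 calls therefore do not cover variation between hairpins.

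GALNT1, a widely expressed starter of O-glycans, read 8.90 (GFP), 8.47 (LUC), 7.44 (PTK7-1) and 7.12 (PTK7-2) in H1299, and 7.98, 7.86, 7.20 and 6.02 in H2009. The PTK7 arrays lay under the control arrays in both lines, lowest with PTK7-2. ST3GAL6, given above, was likewise lower on both PTK7 arrays of each line. ST6GAL1, the main sialyltransferase of N-glycans, read 6.54, 6.19, 6.03 and 6.04 in H1299 and 6.50, 7.24, 5.85 and 5.59 in H2009, and the values of ST6GALNAC2 are given above. In these 2 genes the PTK7 arrays lay under the control arrays in both lines, by little in H1299. In all, 7 of 55 members (12.7%) had both PTK7 arrays on the same side of both control arrays in both lines, against 9.45% of all genes, 4.93% higher and 4.53% lower. GALNT1, GALNT7, ST3GAL6, ST6GAL1 and ST6GALNAC2 were lower and FUT5 and ST6GAL2 higher.

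Line by line, 0 members were called in H1299 (0.00543% of all genes) and 0 in H2009 (0%), and 0 for the difference of the effects between the lines (0%). With an unadjusted p under 0.05 there were 5 members in H1299 (9.09%, against 7.48% of all genes), 9 in H2009 (16.4%, against 7.98%) and 4 for the difference (7.27%, against 5.17%). In H1299 the smallest p belonged to ST3GAL6 (-0.93 ± 0.18), GALNT1 (-1.41 ± 0.36), B3GNT8 (-0.31 ± 0.12) and GALNT10 (0.38 ± 0.15). B3GNT8 read 5.19, 5.30, 4.96 and 4.90 in H1299 and 5.06, 5.23, 5.04 and 5.12 in H2009, with the PTK7 arrays under both controls in H1299 and not in H2009. In H2009 the smallest p belonged to ST6GALNAC2 (-0.85 ± 0.17), ST6GAL1 (-1.15 ± 0.25), B3GNT9 (-0.53 ± 0.12) and GALNT1 (-1.31 ± 0.36). For the difference between lines they belonged to ST6GALNAC4 (-0.63 ± 0.19), GALNT10 (0.70 ± 0.22), GALNT14 (-0.43 ± 0.16) and B3GNT9 (0.46 ± 0.17), with adjusted p from 0.870 to 0.922. ST6GALNAC4 and GALNT14 were higher on the PTK7 arrays of H2009 and under the lower control in H1299, and GALNT10 was higher on those of H1299 and lower on those of H2009.

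The hairpins against PTK7 were then kept apart, in a fit of hairpin and line over all 8 arrays. Both comparisons use the same 4 control arrays. With PTK7-2, 2 of 55 members fell and none rose (3.64%): B4GALT6 and GALNT1. Of all genes 2.15% were called, 0.391% higher and 1.76% lower. B4GALT6, whose values are given above, differed from the control mean by -1.71 in H1299 and by -2.09 in H2009, and over both lines it fell by 1.90 ± 0.17 on the log2 scale (3.74-fold, adjusted p = 0.00598). This was the 2nd lowest of all 18404 genes. GALNT1 fell by 1.73 ± 0.18 (3.33-fold, adjusted p = 0.0081), the 8th lowest, and without the H1299 GFP array its change was -1.67 with an adjusted p of 0.0566. B3GNT2, the main extender of poly-N-acetyllactosamine, changed by -0.70 ± 0.14 (adjusted p = 0.0547) and GALNT13, the closest relative of GALNT1, by -0.49 ± 0.13 (adjusted p = 0.110), neither called.

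With PTK7-1, 0 of 55 members were called, against 1.23% of all genes, 0.250% higher and 0.978% lower. The nearest were ST6GALNAC3 at -0.76 ± 0.14 (adjusted p = 0.050031, just over the threshold), GALNT1 at -0.98 ± 0.18 (adjusted p = 0.0531), ST3GAL6 at -0.83 ± 0.16 (adjusted p = 0.0589) and B4GALT5 at 0.49 ± 0.11 (adjusted p = 0.0891). On the dimmer probe set of ST6GALNAC3 the difference was -0.12 (adjusted p = 0.890). Leaving out a PTK7-2 array did not change the differences of ST6GALNAC3 and GALNT1 given above. For this comparison the fit is the same whichever line's PTK7-2 array is left out, so the runs are not separate checks. Both genes were called in it, and more of all genes were called than in the main fit. ST6GALNAC3, which sialylates gangliosides and O-glycans, read 7.06, 6.93, 6.16 and 7.17 in H1299 and 8.02, 8.10, 7.38 and 7.90 in H2009. The PTK7-1 array was the lowest in each line and the PTK7-2 array lay near the controls. B4GALT5 read 9.67, 9.67, 10.18 and 9.58 in H1299 and 10.13, 10.23, 10.65 and 10.15 in H2009, with the PTK7-1 array the highest in each line.

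An unadjusted p under 0.05 was found for 15 members with PTK7-1 (27.3%, against 12.9% of all genes) and for 17 with PTK7-2 (30.9%, against 16.8%). The PTK7-1 array lay beyond both control arrays on the same side in both lines for 29 members (52.7%, 18 higher and 11 lower), against 35.4% of all genes, 18.0% higher and 17.4% lower. For PTK7-2 this held for 22 (40%, 9 higher and 13 lower), against 33.3%, 18.1% higher and 15.2% lower. Between the control hairpins, LUC minus GFP, 0 members were called (0% of all genes) and 3 had an unadjusted p under 0.05 (5.45%, against 3.65%).

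**Figure D3:**
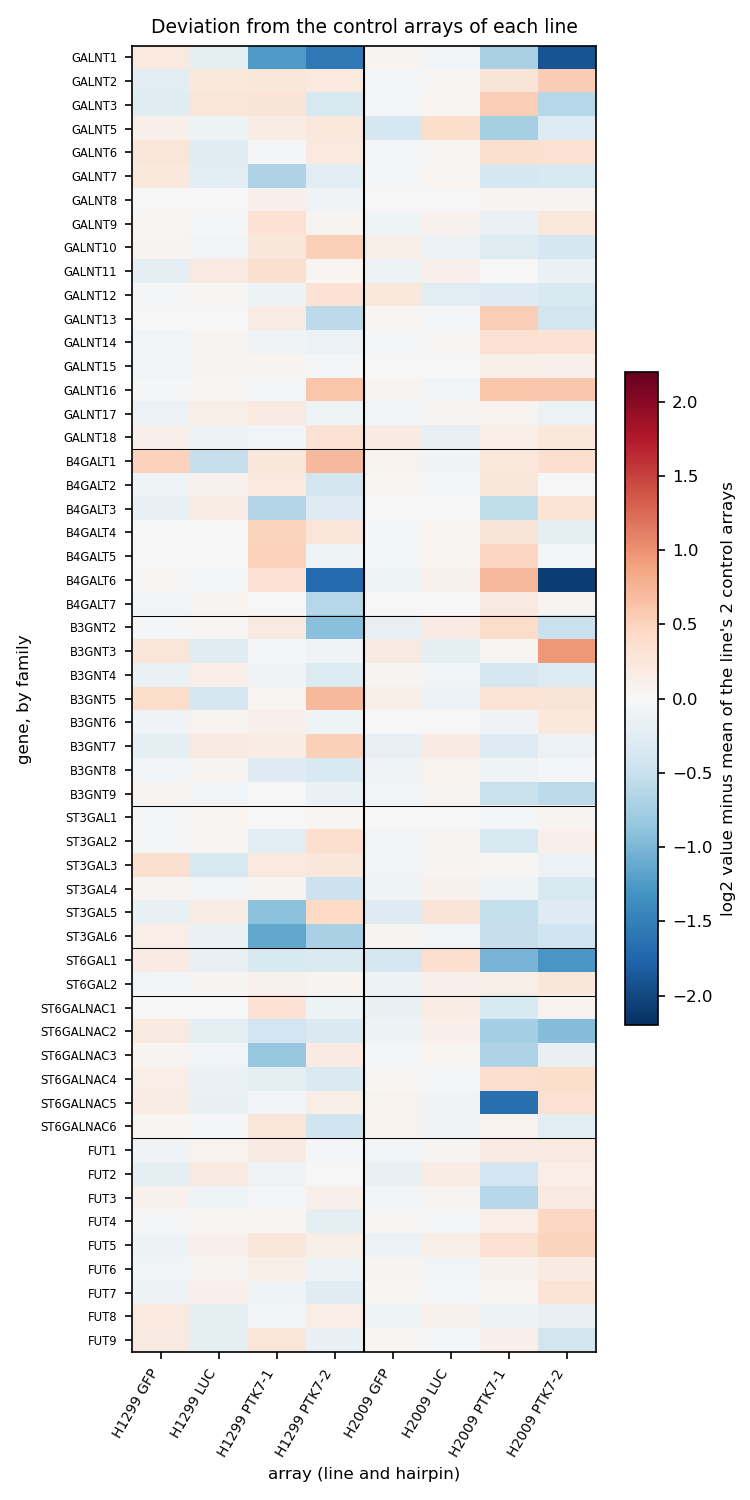
Log2 value of each of the 55 members (rows, by family) on each array (columns) minus the mean of the 2 control arrays of the same line, on a scale from -2.2 (blue) to 2.2 (red). GALNT1 is blue under both PTK7 hairpins in both lines, and B4GALT6 is deep blue under PTK7-2 (-1.71 in H1299 and -2.09 in H2009) and pale red under PTK7-1.

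Set directly against each other, the hairpins differed in 5 members (9.09%), 4 higher with PTK7-1 and 1 lower. Of all genes 3.73% were called, 1.94% higher and 1.79% lower, and 18.3% had an unadjusted p under 0.05, against 16 of the 55 members (29.1%). B4GALT6 was higher with PTK7-1 by 2.42 ± 0.19 (5.35-fold, adjusted p = 0.00628), the largest such difference of all 18404 genes. B3GNT2 read 6.56, 6.61, 6.78 and 5.67 in H1299 and 7.61, 7.97, 8.20 and 7.31 in H2009, a difference of 1.00 ± 0.16 between the hairpins (adjusted p = 0.0217). GALNT13 read 7.76, 7.78, 7.92 and 7.19 in H1299 and 8.04, 7.94, 8.53 and 7.59 in H2009, a difference of 0.84 ± 0.15 (adjusted p = 0.0298). In both genes, and in GALNT3 (0.91 ± 0.18, adjusted p = 0.0376), the PTK7-1 array was highest and the PTK7-2 array lowest in each line, with the controls between; in GALNT3 the H1299 PTK7-1 array was level with LUC. ST6GALNAC3 went the other way, at -0.77 ± 0.16 (adjusted p = 0.0443), but on its dimmer probe set the difference was -0.18 (adjusted p = 0.770). GALNT1 was lower with PTK7-2 than with PTK7-1 by 0.75 ± 0.21 and was not called (adjusted p = 0.0989).

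These calls rest on 2 arrays a hairpin, and the calls among all genes, 686 of 18404, moved with them: 0 were called without the H1299 PTK7-1 array, 97 without the H1299 PTK7-2 array, 92 without the H2009 PTK7-1 array and 943 without the H2009 PTK7-2 array. Among the members, leaving out the H1299 PTK7-1 array left 0 of the 5 (B4GALT6 then 2.68, adjusted p = 0.0623), the H1299 PTK7-2 array 1, the H2009 PTK7-1 array 1, and the H2009 PTK7-2 array left 3 and added 1 other. Leaving out a control array also left fewer of the 5 called. For this contrast the fit is the same whether the GFP array of H1299 or that of H2009 is left out, and likewise for LUC. B4GALT6 kept its call without every other single array. Direction did not turn for any of the 5.

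**Figure D4:**
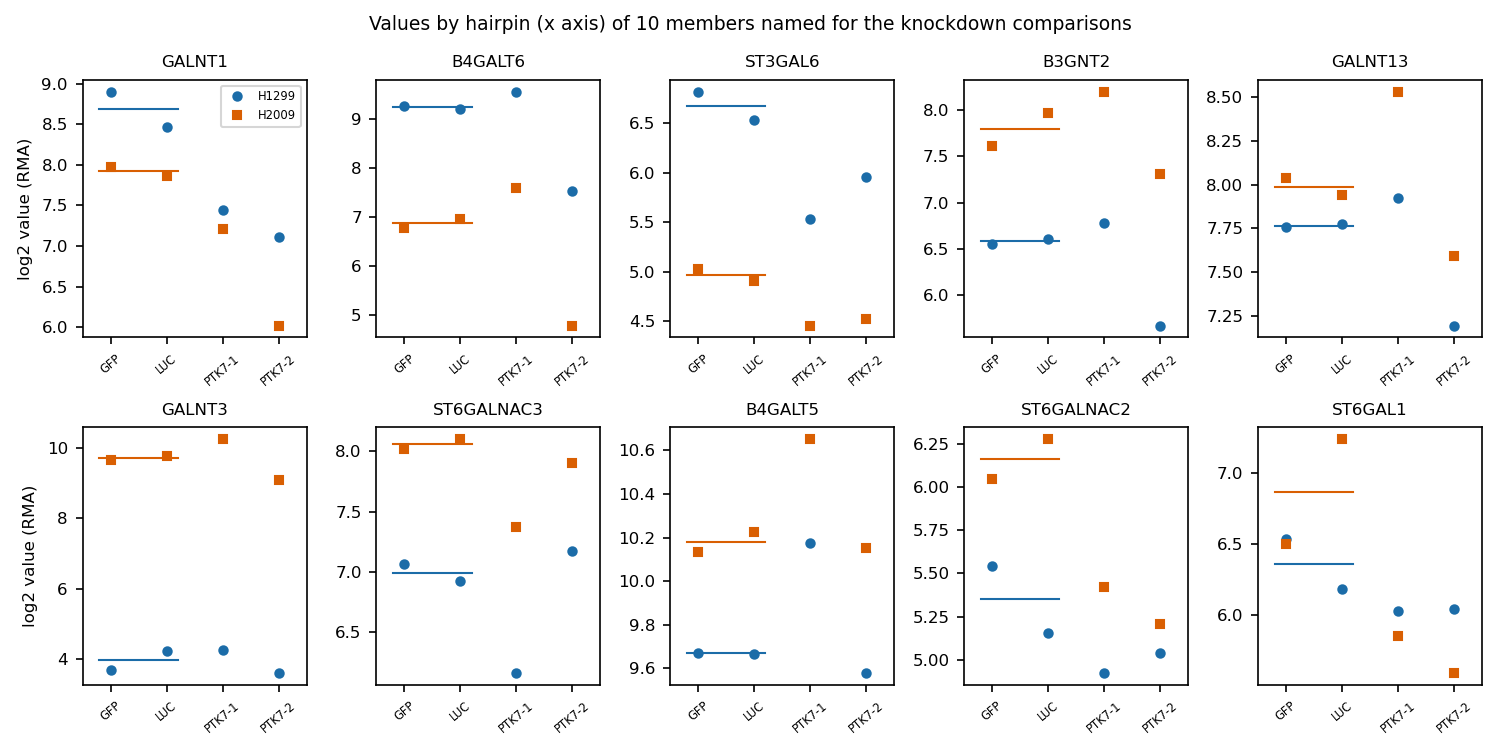
Values of 10 members on each array, as log2 RMA value (y axis, own scale per gene) by hairpin (x axis), circles for H1299 and squares for H2009, with a line at the mean of each line's 2 control arrays. GALNT1 and ST3GAL6 lie under the controls with both PTK7 hairpins, whereas B4GALT6, B3GNT2 and GALNT13 lie above them with PTK7-1 and below them with PTK7-2.

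Among the partner genes, with PTK7-1, 3 of 75 rose and none fell (4%, against 1.23% of all genes): B3GALT1 (1.02 ± 0.14, adjusted p = 0.0223), UGCG (0.76 ± 0.11, adjusted p = 0.0292) and B4GAT1 (0.67). UGCG read 10.15, 9.98, 10.72 and 10.24 in H1299 and 7.92, 7.72, 8.68 and 8.05 in H2009, highest with PTK7-1 in each line. With PTK7-2, 2 fell and none rose (2.67%, against 2.15% of all genes): MAN1A2, a Golgi mannosidase that trims N-glycans (-1.43 ± 0.16, adjusted p = 0.0101), and MGAT4A, an N-glycan branching enzyme (-0.84 ± 0.14, adjusted p = 0.0283). MAN1A2 read 7.34, 7.48, 7.86 and 5.88 in H1299 and 8.85, 8.92, 8.79 and 7.57 in H2009, lowest with PTK7-2 in each line. Between the hairpins MAN1A2 (1.60 ± 0.19) and MGAT4A (1.17 ± 0.16) were the partner genes of smallest p, and B3GALT1 was the 3rd called (4%, against 3.73% of all genes). Over both hairpins together 0 of 75 were called, and the smallest p belonged to B4GAT1 (0.55 ± 0.11) and GMDS (0.29 ± 0.08). Within the lines the values of smallest p were MUC15 (1.57 ± 0.32) and MGAT5B (0.80 ± 0.21) in H1299 and MUC16 (-0.92 ± 0.22) and MUC13 (1.18 ± 0.34) in H2009, none called, and MUC15 (1.66 ± 0.45) and MUC16 (1.00 ± 0.31) for the difference between the lines. Between LUC and GFP they were B3GALT1 (-0.66 ± 0.16) and B3GALNT1 (0.31 ± 0.13), also not called.

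The members with 2 probe sets show how far these values depend on the probes. The brighter and dimmer probe sets of ST6GALNAC5 ranged over the arrays from 4.95 to 8.70 and from 3.47 to 4.85. Those of ST6GALNAC3 ranged from 6.16 to 8.10 and from 2.53 to 3.10. In both genes the lines did not overlap on the brighter probe set and overlapped on the dimmer one. ST6GALNAC4 and ST6GALNAC6 lie next to each other on chromosome 9, and their line differences on the brighter probe sets were 0.67 and 0.68. The second was not called (limma adjusted p = 0.0780). On the dimmer probe sets the differences were 0.50 and 0.27, neither called.

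**Figure D5:**
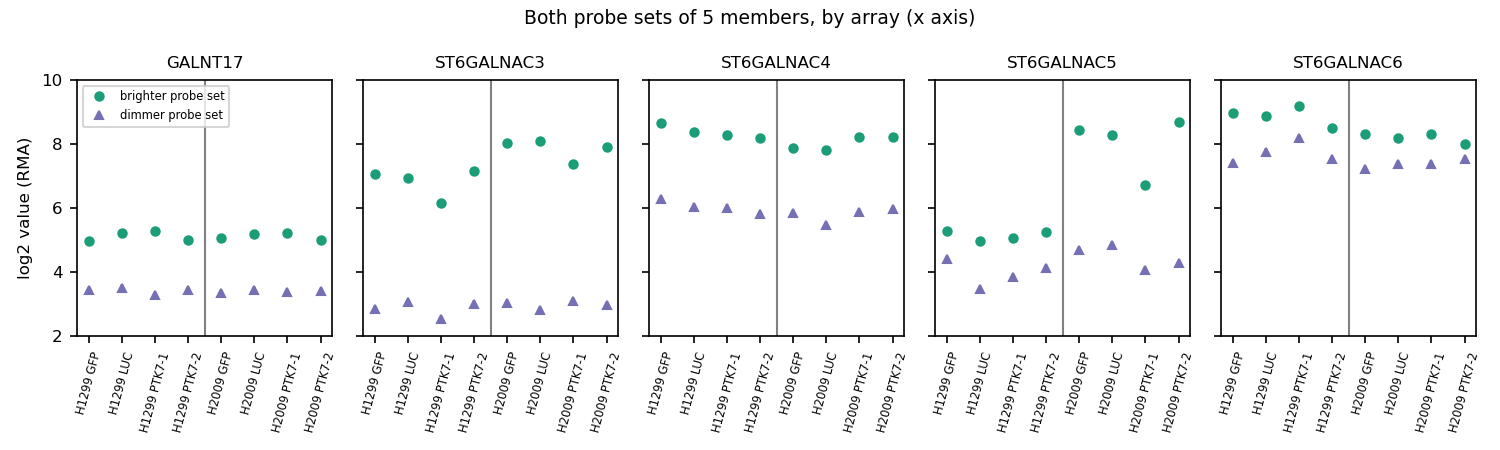
Log2 RMA value (y axis) of both probe sets of the 5 members that have 2, on each array (x axis), circles for the brighter and triangles for the dimmer probe set, with a line between H1299 and H2009. In ST6GALNAC3 and ST6GALNAC5 the brighter probe set steps up from H1299 to H2009, and the dimmer probe set of ST6GALNAC3 stays between 2.53 and 3.10.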

How the data were processed

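Expression was measured on 8 Affymetrix arrays. Per the submitters' processing notes, the authors ran RMA under R 2.14.0, and the deposited values are its log2 intensities, 1 per probe set. The array build was not given in the sources used here. The annotation table names exactly 1 gene for 19158 of 32321 probe sets, several for 1388 and none for 11775, and 19128 of the single symbols were found in the current RefSeq gene table through their gene ID. For the 637 genes with more than 1 probe set the brightest was used, which left 18404 genes.

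Differences were fitted with limma 3.58.1 in R 4.3.3 (lmFit and eBayes, Benjamini-Hochberg over all genes, threshold 0.05). Line and averaged contrasts used a mean per group, and single hairpins a fit of hairpin plus line. The labels give both lines the same hairpins, and deviations of arrays with the same hairpin from their group means correlated between lines, with r = 0.230 for control and 0.407 for PTK7 hairpins, so a fit with the hairpin as a replicate block was run too. The labels give no batch. The number of arrays limits the precision.

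The members and lists were chosen with earlier results of these data known. Called members were named (at most 26 for the line contrast), with the 4 of smallest p per knockdown contrast, up to 4 called partner genes per list by size for the line contrast and the 2 of smallest p for each other contrast; MUC4, LAMP1, CD44, B3GALT6 and B4GALNT4 were called but fall outside this rule. Alternatives were median centring, quantile normalization, a test without the dimmest 40% of genes, averaged probe sets, a trended prior, the replicate block, a line term over all arrays, an additive fit and leaving out each array; the use of the dimmer probe set was chosen after seeing the data. The fit by group and the fit of hairpin plus line were also tested on simulated data, with noise drawn independently for each array. This covered the line contrast, the averaged contrast and those of the PTK7 hairpins. The other contrasts and fits were not simulated. Python 3.11.15 with matplotlib 3.10.9 drew the figures.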

Additional observations from a re-analysis of the deposited data

Results flagged for a closer look

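The hairpins against PTK7 differed from each other, in a test of that difference itself, in 5 members. PTK7-1 minus PTK7-2 was 2.42 for B4GALT6, 1.00 for B3GNT2, 0.91 for GALNT3, 0.84 for GALNT13 and -0.77 for ST6GALNAC3 on the log2 scale. The sign held in both lines in each of the 5 on the probe sets used. GALNT3 was low on every H1299 array, as given above. On the dimmer probe set of ST6GALNAC3 the difference was -0.18 (limma adjusted p = 0.770), and its sign was not the same in both lines.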

How the results depend on the processing

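No called difference turned its direction under any alternative run. Without the dimmest 40% of genes, 14 of the 35 members left were called between the lines, 13 of them also called in the main fit. GALNT5, GALNT14, GALNT18, FUT2, FUT3, ST3GAL6 and ST6GALNAC2 were called in the main fit but lay among the dimmest 40% and left this test. Of the genes left after the dimmest 40% of the 18404 were removed, 3644 were called, a higher share than the 24.8% of the main fit. Between the lines, 31 members were called with the hairpin as a replicate block and 32 with a line term over all 8 arrays, against 20, and 15 to 27 with 1 array left out; of the partner genes, 41 were called with that line term against 23, and 11 to 29 with 1 array left out. Of all 18404 genes, 4566 were called between the lines, against 5767 with the replicate block, 7547 with the line term and 2196 to 5298 with 1 array left out. For PTK7 minus control over both lines, 2 members were called with the replicate block against 0. For PTK7-1 against the controls, 1 member was called after median centring and 2 without the dimmest 40% of genes, against 0. With a trended prior 3 were called, and 3 with no replicate block (the controls as 1 level). In the same order 255, 348 (of the genes left), 373 and 331 of all genes were called, against 226. With 1 array left out most runs still called no member, while the calls among all genes moved both below and above 226. For PTK7-2 against the controls 1 to 3 were called with 1 array left out, against 2, and for PTK7-1 minus PTK7-2 0 to 4, against 5. The replicate block changed no call of a member within a line or for the difference between lines. No scaling moved the median gene by over 0.1. Where leaving out an array left a single array in a group, that array was assumed to vary like the other groups.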

Other observations

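The brighter probe sets of ST6GALNAC3, ST6GALNAC4, ST6GALNAC5 and ST6GALNAC6, which gave the values above, have the IDs 8180309, 8180413, 8180266 and 8180339, and their dimmer partners 7902425, 8164314, 7902441 and 8164304. ST6GALNAC1 and ST6GALNAC2 were read only by probe sets of the same ID series, 8180414 and 8180372. What sets that series apart was not settled here. MUC1, the membrane mucin, read 8.19 (GFP), 8.60 (LUC), 6.16 (PTK7-1) and 7.94 (PTK7-2) in H2009, and ST6GALNAC5 at 8.45, 8.27, 6.70 and 8.70, so that both were lowest on the same single array. MUC13 read 3.80, 3.82, 4.40 and 5.59 in H2009, highest with PTK7-2, and 3.26, 3.09, 3.23 and 3.40 in H1299. These genes were chosen after their values were seen.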
